A study of Mus musculus with 18 samples.

Results

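Transcripts of 10 genes by which liver cells sense nutrients and energy were followed over the day. They were *Mtor*, *Rptor*, *Tsc1*, *Tsc2*, *Ddit4*, *Sesn1*, *Sesn2*, *Eif4ebp1*, *Prkaa1* and *Prkaa2*, taken by gene symbol from the 14451 genes of the normalized liver table, and all 10 were among the 14449 genes tested. The table covers 18 whole livers, 3 at each of the zeitgeber times (ZT, hours after lights on) 1, 5, 9, 13, 17 and 21. All were from wild-type male mice of 8 to 9 weeks that lived under 12 h of light and 12 h of darkness, with no other treatment named in the labels, and each liver was from another mouse. More mice were kept per time point than were sequenced, and the study took those with the best RNA. Values are read counts estimated by RSEM and normalized by the study to about 1000000 reads per liver, and they are given below as normalized values. Only RNA was measured, so protein levels, complex assembly and the activity of mTOR and AMPK were not tested.

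The kinase mTOR works in complexes. With raptor (*Rptor*) it drives protein synthesis and growth when amino acids and insulin are plentiful, and it holds back autophagy. The TSC1–TSC2 complex restrains it through the small GTPase Rheb, REDD1 (*Ddit4*) and the sestrins restrain it under stress or amino acid shortage, and AMPK, whose catalytic subunits are encoded by *Prkaa1* and *Prkaa2*, does so when cellular energy is low. In the liver, feeding and fasting switch this network over the day, and mice feed mostly in the dark.

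The livers held 10268168 to 23242842 estimated reads each. Over the 4 clock genes *Arntl*, *Nr1d1*, *Per2* and *Dbp*, 17 of 18 livers were nearest to the other livers of their own time, and the deepest one, replicate 3 of ZT5, was nearest to ZT9. Leaving it out kept the same 5 of the 10 genes called for a 24 h rhythm. Hepatocyte markers summed to between 65255 and 95021. The 5 Kupffer cell markers summed to between 145 and 201 at ZT5 and between 84.9 and 123 at ZT21, and the 5 sinusoidal endothelium markers to between 152 and 190 and between 81.8 and 128, with none of these 10 markers at 0. In each of these lists the ZT5 mean was the highest of the 6 times, and 1 and 2 of the markers had a 24 h rhythm. Livers of a time also differed widely, with Kupffer cell sums of 88.8 to 185 at ZT1 and 85.1 to 185 at ZT17. Stellate cell markers summed to between 136 and 220 and red blood cell markers to between 99.6 and 412, each highest in a liver of ZT5. The 4 cholangiocyte markers, 3 of them rhythmic, were lowest at ZT5, at 5.58 to 6.92, and highest at ZT1, at 11.7 to 15.1. Lymphocyte markers, of which *Cd3e* was not analysed here, reached at most 12.7. The part of these markers in the results below was not tested, and in whole liver fewer cells of a type and less RNA per cell cannot be told apart.

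Transcripts of *Mtor* and several of its inhibitors had a daily rhythm in these livers, and those of the AMPK catalytic subunits were not called. A cosine of 24 h fitted to log2(value + 1) was called at an adjusted *P*-value below 0.05 (limma moderated F test, Benjamini–Hochberg over all genes) for 5 of the 10 genes, *Mtor*, *Rptor*, *Tsc1*, *Ddit4* and *Sesn1*, where 35.3% of all genes were called. *Ddit4* had its fitted peak in the dark and the other 4 in the light. Among all called genes, 51.6% peaked in the light. The 5 genes not called, *Tsc2*, *Sesn2*, *Eif4ebp1*, *Prkaa1* and *Prkaa2*, had fitted peaks in the light. Of these, *Tsc2* had its highest mean in the dark, at ZT13. The median amplitude of the 10 genes was 0.23 on the log2 scale, against 0.16 over all genes tested. The 10 genes were chosen with earlier results of these data known, so the comparisons with all genes are not independent of the data. With each liver rescaled to a total of 1000000, 9 of the 10 genes were called, *Prkaa1* and *Prkaa2* among them and only *Tsc2* not. In that setting 36.5% of all genes were called and 67.9% of these peaked in the light. That rescaling moved log2 values of single livers by as much as -0.11, at ZT17 replicate 2, and left all 10 fitted peaks on the same side of the day.

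**Figure D1:**
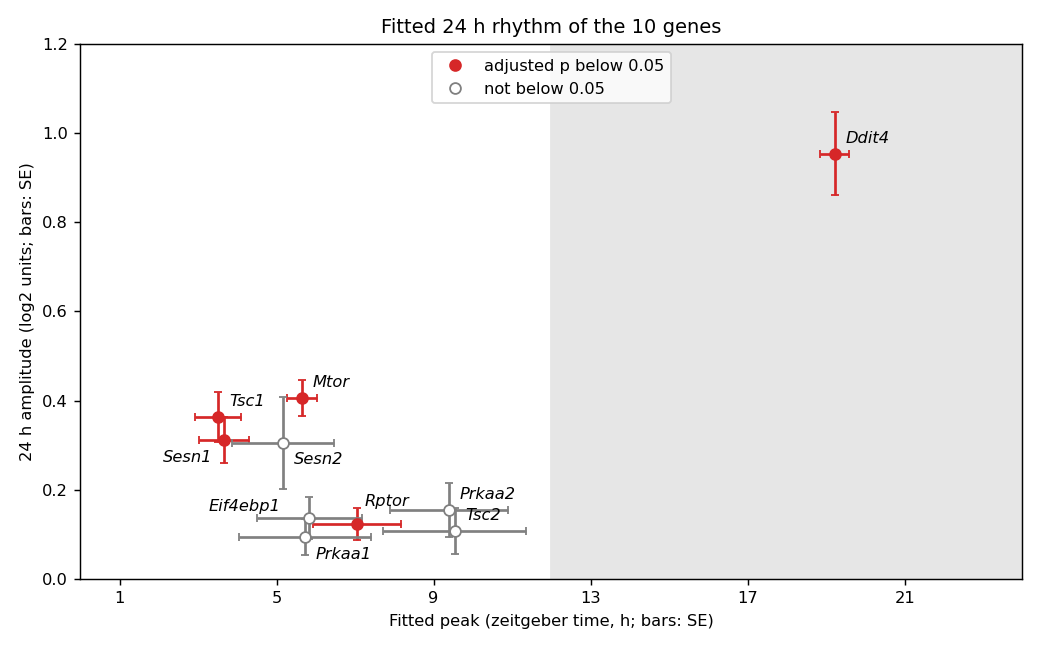
Amplitude of the fitted 24 h cosine (log2 units, vertical) against the time of its peak (zeitgeber time in hours, horizontal) for the 10 genes, with SE as bars, red for adjusted *P*-values below 0.05 and dark hours in grey. *Ddit4* stands alone in the dark with an amplitude of 0.95, and the other 9 genes lie in the light between 0.094 and 0.41.

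The starts of the 4 genes with the lowest adjusted *P*-values are shown. Among them were the pair most alike of the 10 genes, *Tsc1* and *Sesn1*, and the pair most opposed, *Mtor* and *Ddit4*. RefSeq entries for GRCm38.p6 were found for 9 of the 10 genes, all but *Eif4ebp1*, and each window holds the 250 bases before an annotated start, 5′ to 3′ on the strand of the gene. The window of *Mtor* is chr4:148448332-148448581 on the plus strand and that of *Ddit4* chr10:59951771-59952020 on the minus strand. *Tsc1* has chr2:28640983-28641232, and *Sesn1* has 2 starts, with chr10:41810324-41810573 and chr10:41887189-41887438, all on the plus strand. The gene spans given below come from GENCODE, not RefSeq. By those spans both *Sesn1* windows lie inside the gene, and the *Ddit4* and *Tsc1* windows overlap the start of theirs. Capitals mark, on either strand, the CCAAT box (CCAAT), the GC box (GGGCGG) and, in *Ddit4*, an E-prime box (CACGTT).
Mtor: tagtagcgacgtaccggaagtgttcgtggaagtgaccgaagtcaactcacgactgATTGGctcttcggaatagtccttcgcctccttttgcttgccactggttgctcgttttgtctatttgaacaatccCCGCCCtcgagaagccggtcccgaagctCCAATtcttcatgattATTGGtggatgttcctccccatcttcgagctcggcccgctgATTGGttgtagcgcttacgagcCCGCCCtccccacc
Ddit4: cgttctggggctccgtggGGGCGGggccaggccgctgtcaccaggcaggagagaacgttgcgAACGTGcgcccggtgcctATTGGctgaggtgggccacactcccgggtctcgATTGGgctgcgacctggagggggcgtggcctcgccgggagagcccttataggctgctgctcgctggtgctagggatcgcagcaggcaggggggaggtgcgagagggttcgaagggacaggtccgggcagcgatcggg
Tsc1: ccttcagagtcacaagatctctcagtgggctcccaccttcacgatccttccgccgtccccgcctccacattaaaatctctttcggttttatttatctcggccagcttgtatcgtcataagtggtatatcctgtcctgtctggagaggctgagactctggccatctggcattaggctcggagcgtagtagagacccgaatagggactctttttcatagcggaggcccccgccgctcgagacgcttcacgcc
Sesn1 start 1: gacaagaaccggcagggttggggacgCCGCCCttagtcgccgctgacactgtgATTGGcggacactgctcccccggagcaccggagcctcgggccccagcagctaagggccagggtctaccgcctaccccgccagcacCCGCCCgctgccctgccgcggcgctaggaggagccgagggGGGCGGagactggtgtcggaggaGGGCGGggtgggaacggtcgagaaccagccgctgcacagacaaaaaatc
Sesn1 start 2: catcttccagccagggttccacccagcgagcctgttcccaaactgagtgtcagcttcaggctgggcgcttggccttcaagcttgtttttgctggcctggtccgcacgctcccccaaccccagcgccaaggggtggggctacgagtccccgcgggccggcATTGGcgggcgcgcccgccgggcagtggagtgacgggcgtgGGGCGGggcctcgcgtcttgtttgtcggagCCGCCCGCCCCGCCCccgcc

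The window of *Ddit4* held an E-prime box, an element that clock factors can bind, 188 bases before the RefSeq start. Of the 32851 mouse promoters of that length, 3.85% held one. *Mtor* had 4 CCAAT boxes and 2 GC boxes, *Ddit4* had 2 and 1, and each *Sesn1* start had 1 and 4, while 33.8% of all promoters held a CCAAT box and 32.7% a GC box. The *Tsc1* window had no match to any motif searched. No window of the 9 genes held an E-box (CACGTG, 6.02% of all promoters), a D-box (TTATGNAA, 3.07%), a ROR element core (TAGGTCA, 2.23%, or TGGGTCA, 3.24%), a cAMP response element (TGACGTCA, 1.55%), an ATF4 element (TGATGNAA, 3.45%), a forkhead site (GTAAACA, 3.17%) or a TATA box (TATAAA, 12.4%). These matches describe the letters alone. No motif in the search contains another, and GC boxes that overlap each other were each counted, as at the second *Sesn1* start.

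Within the kinase complex, *Mtor* was highest in the middle of the light phase and lowest in the middle of the dark phase. *Mtor*, which encodes the kinase itself, lies on chromosome 4 at 148448611 to 148557683 (GRCm38). Its normalized values in the light were 44.7, 40.5 and 44.3 at ZT1, 61.7, 48.3 and 50.3 at ZT5 and 52.8, 50.7 and 44.7 at ZT9. From ZT13 on they were 36.6, 37.0 and 33.3 at ZT13, 29.4, 29.1 and 31.2 at ZT17 and 31.8, 37.1 and 34.5 at ZT21. Every one of the 9 light livers lay above every one of the 9 dark livers, which was so for 1 of the 10 genes, where 0.45% of all genes had all light livers on top. The 3 livers averaged 53.4 ± 7.26 at ZT5 (SD, n = 3), 1.79 times the 29.9 ± 1.12 at ZT17 (SD, n = 3). The fitted amplitude was 0.41 ± 0.041 log2 units (SE) with a peak at ZT5.65 ± 0.38 h (adjusted *P*-value 3.99e-06, limma), and it was called under all 26 alternatives.

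*Rptor*, the scaffold that brings substrates to the kinase (chromosome 11, 119602905 to 119899576), varied little. In the light the normalized values were 33.2, 34.5 and 35.8 at ZT1, 35.3, 36.4 and 31.7 at ZT5 and 39.0, 32.3 and 35.2 at ZT9. In the dark they were 33.8, 33.7 and 35.6 at ZT13, 30.8, 28.3 and 30.4 at ZT17 and 30.4, 29.4 and 30.9 at ZT21. The livers of ZT17 and ZT21 were the lowest, and those of ZT13 were among the light values. The amplitude was 0.12 ± 0.036 log2 units (SE) with a peak at ZT7.05 ± 1.12 h (adjusted *P*-value 0.0357, limma), and the test of the 6 time points gave an adjusted *P*-value of 0.114. The call was lost without any 1 of 10 livers, namely ZT5 replicates 1 and 2, ZT9 replicates 1 and 3 and each liver of ZT17 and ZT21, with adjusted *P*-values of 0.0513 to 0.0778 (limma).

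Transcripts of the inhibitory TSC complex were uneven, with *Tsc1* rhythmic and *Tsc2* not called. *Tsc1*, which encodes the subunit that stabilizes the complex, lies on chromosome 2 at 28641228 to 28691167. Its normalized values were 28.6, 32.1 and 33.7 at ZT1, 35.5, 39.6 and 34.4 at ZT5 and 28.4, 34.2 and 31.7 at ZT9. The dark livers had 19.6, 21.7 and 22.8 at ZT13, 19.9, 20.03 and 26.3 at ZT17 and 28.4, 33.0 and 29.0 at ZT21. All 6 livers of ZT13 and ZT17 were below all others, and by ZT21 the values overlapped those of ZT1 and ZT9. The amplitude was 0.36 ± 0.055 log2 units (SE), a fitted fold of 1.65 from trough to peak, with the peak at ZT3.52 ± 0.58 h (adjusted *P*-value 0.000299, limma).

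*Tsc2*, which encodes the subunit that acts on Rheb (chromosome 17, 24595816 to 24632630, minus strand), had its highest mean where *Tsc1* had its lowest. Values were 38.6, 32.6 and 39.9 at ZT1, 43.5, 36.9 and 38.6 at ZT5 and 34.3, 39.2 and 40.9 at ZT9. Dark values were 48.5, 39.8 and 40.9 at ZT13, 31.2, 37.2 and 37.8 at ZT17 and 30.5, 35.6 and 38.1 at ZT21. Replicate 1 of ZT13 was the highest of all livers. All livers of ZT13 lay above those of ZT17 and ZT21, and the other times overlapped. The amplitude was 0.11 ± 0.051 log2 units (SE; adjusted *P*-value 0.228, limma). Of the merged exon bases of *Tsc2*, 7.2% are shared with *Pkd1* on the opposite strand, whose mean normalized value was 24.7. Whether the counting used strand is not given in the sources used here, so reads of the shared bases cannot be told apart.

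*Ddit4* had the largest amplitude of the 10 genes and ran opposite to *Mtor*. It encodes REDD1, a stress-induced protein that inhibits mTOR through the TSC complex, and lies on chromosome 10 at 59949669 to 59951834 (minus strand). In the light the normalized values were 5.64, 7.50 and 6.93 at ZT1, 2.31, 2.39 and 2.35 at ZT5 and 2.34, 2.10 and 3.23 at ZT9. In the dark they were 6.52, 4.76 and 6.90 at ZT13, 10.4, 5.58 and 13.4 at ZT17 and 10.1, 11.6 and 9.33 at ZT21. All 6 livers of ZT5 and ZT9 were below all others, and at ZT17 replicate 2 lay at about the level of ZT13 while the other 2 livers were far higher. The 3 livers averaged 10.4 ± 1.17 at ZT21 (SD, n = 3), 4.41 times the 2.35 ± 0.0405 at ZT5 (SD, n = 3). The amplitude was 0.95 ± 0.093 log2 units (SE), a fitted fold of 3.75, with the peak at ZT19.2 ± 0.37 h (adjusted *P*-value 2.86e-06, limma). Between 22 and 197 reads stood behind each value. The coefficient of variation between time means was higher for *Ddit4* than for 96.6% of the genes tested, whereas *Mtor* stood at 71.9% and *Tsc1* at 67.3%.

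The sestrins encode stress-induced inhibitors of mTOR, some of which sense leucine. *Sesn1* (chromosome 10, 41809935 to 41908424) was higher in the light. Its normalized values were 14.6, 15.9 and 14.9 at ZT1, 18.2, 16.0 and 15.2 at ZT5 and 14.3, 17.5 and 14.3 at ZT9. Livers of the dark phase had 8.98, 10.4 and 10.7 at ZT13, 10.7, 11.3 and 11.8 at ZT17 and 12.1, 15.5 and 12.7 at ZT21. The livers of ZT13 and ZT17 were below all livers of the other 4 times, the same 2 times at which *Tsc1* was lowest. The amplitude was 0.31 ± 0.052 log2 units (SE), a fitted fold of 1.54, with the peak at ZT3.67 ± 0.64 h (adjusted *P*-value 0.00064, limma).

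*Sesn2* (chromosome 4, 132492032 to 132510501, minus strand) had nearly the same amplitude as *Sesn1* but a wider spread, and it was not called. Its values were 4.19, 7.59 and 7.79 at ZT1, 5.63, 8.79 and 5.22 at ZT5 and 5.32, 8.62 and 6.04 at ZT9. Dark livers had 3.65, 4.28 and 5.08 at ZT13, 4.15, 4.46 and 4.92 at ZT17 and 2.46, 6.26 and 4.90 at ZT21. Replicate 1 of ZT1 and replicate 1 of ZT21 lay far below the other livers of their time, and all times overlapped with several others. The amplitude was 0.31 ± 0.10 log2 units (SE) with a peak at ZT5.17 (adjusted *P*-value 0.0705, limma), from 30 to 130 reads per liver. Its coefficient of variation was 0.257 between livers of a time and 0.211 between times, against 0.0899 and 0.186 for *Sesn1*. Without ZT1 replicate 1 or ZT21 replicate 2 the adjusted *P*-value of *Sesn2* was 0.0456 or 0.0495 (limma).

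*Eif4ebp1* encodes the translation repressor that mTOR inactivates by phosphorylation, and its transcript was not called for a rhythm. Normalized values (chromosome 8, 27260329 to 27276674) ran from 19.4 to 29.9, with the highest mean at ZT9, 27.5 ± 1.78 (SD, n = 3), and the lowest at ZT17, 21.5 ± 1.98 (SD, n = 3). The amplitude was 0.14 ± 0.048 log2 units (SE; adjusted *P*-value 0.0811, limma). The adjusted *P*-value (limma) was 0.045 without ZT1 replicate 1 and 0.0488 without ZT13 replicate 1.

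Neither catalytic AMPK subunit was called by limma with all 18 livers as the study normalized them. With each liver rescaled to 1000000 both were called, *Prkaa1* at an adjusted *P*-value of 0.0217 and *Prkaa2* at 0.0491 (limma). *Prkaa1* (chromosome 15, 5143861 to 5181899) had normalized values between 11.1 and 16.0, with the lowest mean at ZT17, 12.3 ± 1.07, and the highest at ZT1, 14.7 ± 0.363 (SD, n = 3). Its amplitude was 0.094 ± 0.041 log2 units (SE; adjusted *P*-value 0.182, limma), and 12.3% of all genes had a smaller coefficient of variation between times. *Prkaa2* (chromosome 4, 105029874 to 105109890, minus strand) ranged from 70.7 to 123, with the highest mean at ZT9, 109 ± 14.5, and the lowest at ZT17, 82.0 ± 5.99 (SD, n = 3). The lowest liver of ZT9, at 94.3, lay within the ranges of ZT5 and ZT13. The amplitude of *Prkaa2* was 0.15 ± 0.060 log2 units (SE; adjusted *P*-value 0.125, limma), and 0.0372 was the adjusted *P*-value without ZT5 replicate 1.

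**Figure D2:**
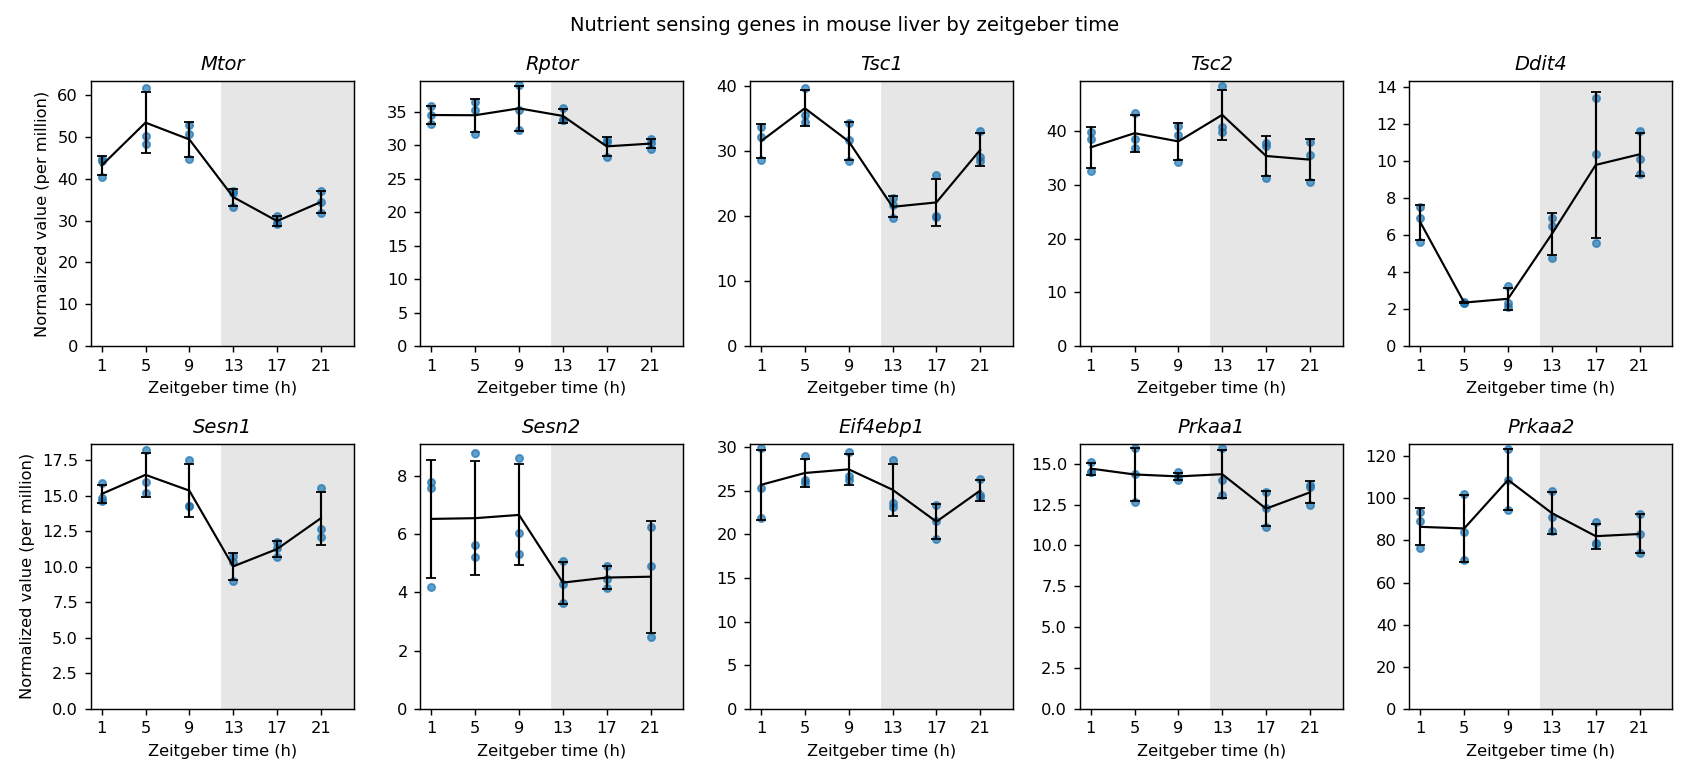
Normalized value (per 1000000 reads of the normalized library, vertical, from 0) by zeitgeber time (hours, horizontal) for the 10 genes. Blue points are the livers, the black line joins the means of 3 livers with SD bars, and grey marks the dark. *Mtor*, *Tsc1* and *Sesn1* drop between ZT9 and ZT13 while *Ddit4* climbs, and *Rptor*, *Tsc2*, *Eif4ebp1*, *Prkaa1* and *Prkaa2* stay flatter.

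Levels were compared between genes only per kilobase of merged exon. On that scale the mean normalized value was highest for *Eif4ebp1*, at 11.5, and *Prkaa2*, at 11.3. *Mtor* had 4.06, *Tsc2* 3.95, *Ddit4* 3.59 and *Sesn1* 3.42. *Prkaa1*, *Rptor* and *Tsc1* followed at 2.98, 2.46 and 2.44, and *Sesn2* was lowest at 1.59. *Prkaa2* thus had several times the level per kilobase of *Prkaa1*, the other AMPK catalytic subunit.

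Of the steps called for the 10 genes, 4 fell at the change from light to dark. Of 60 steps between consecutive times, 5 were called (limma, Benjamini–Hochberg over all genes within a step) and 16 had an unadjusted *P*-value below 0.05. From ZT9 to ZT13 3 genes fell, where 4.6% of all genes were called lower. *Mtor* fell by 0.46 ± 0.10 log2 units (SE; adjusted *P*-value 0.0122), *Tsc1* fell by 0.53 ± 0.12 (adjusted *P*-value 0.0111) and *Sesn1* fell by 0.57 ± 0.11 (adjusted *P*-value 0.00536). *Ddit4* rose over the same step by 0.99 ± 0.22 log2 units (SE; adjusted *P*-value 0.0111), where 4.64% of all genes were called higher. The fifth step was that of *Ddit4* from ZT1 to ZT5, a change of -1.19 ± 0.22 (SE; adjusted *P*-value 0.00471), where 2.36% of all genes were called lower. None of the 10 genes was called in the other steps, where the share of all genes called was 2.53% higher from ZT1 to ZT5, 0.637% higher and 0.9% lower from ZT5 to ZT9, 0.671% and 0.533% from ZT13 to ZT17, 0.941% and 0.568% from ZT17 to ZT21, and 0.0277% and 0.104% from ZT21 to ZT1. Without ZT9 replicate 2 the ZT9 to ZT13 steps of *Tsc1* and *Ddit4* were lost, which left 3 steps, and without ZT13 replicate 1 that of *Tsc1* was lost. Hepatocyte markers summed to between 65255 and 69775 at ZT9 and between 79958 and 87911 at ZT13, and their part in these steps was not tested.

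The other tests called *Mtor*, *Tsc1*, *Ddit4* and *Sesn1*, and not *Rptor*. The 6 time points differed for 4 of the 10 genes (limma F test, 26.3% of all genes called), with adjusted *P*-values of 0.000181 for *Mtor*, 0.000896 for *Tsc1*, 5.72e-05 for *Ddit4* and 0.00184 for *Sesn1*. JTK, a rank test, called these 4 genes (14.1% of all genes called), as did MC, which joins JTK with a Lomb–Scargle test (18.3%), and CircaN limited to its cosine curve (11.2%). These 3 methods search periods of 20 to 28 h. The best CircaN periods were 22.6 h for *Mtor*, 20.5 h for *Tsc1*, 24.2 h for *Ddit4* and 21.4 h for *Sesn1*. All 10 genes had a CircaN q-value below 0.05, and only these 4 reached the R-squared of 0.7. A term with a 12 h period beside the 24 h term was called by limma for 0 of the 10 genes, where 0.872% of all genes were called, and 1 gene had an unadjusted *P*-value below 0.05, *Tsc1* at 0.0347. In all 10 genes the livers of the highest time lay above those of the lowest time, which was also so for 70.8% of all genes.

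Ratios within a liver were used to ask whether partners of a complex or family kept step, since a ratio does not depend on how a liver was scaled. The ratio of *Mtor* to *Rptor* had a 24 h amplitude of 0.30 ± 0.047 log2 units (SE) with a peak at ZT5.07 (permutation test over 18 livers, *P*-value 9e-05, 0.00036 adjusted over 4 pairs). That of *Tsc1* to *Tsc2* had an amplitude of 0.39 ± 0.081 (SE) with a peak at ZT2.42 (permutation *P*-value 0.00049, adjusted 0.00098). The transcript balance of both pairs thus changed over the day. Reads of the 7.2% of *Tsc2* exon bases shared with *Pkd1* may be part of the *Tsc1* to *Tsc2* ratio, which was not tested. The ratio of *Tsc1* to *Tsc2* was low at ZT13 and ZT17 and at ZT21 was back within the range of the light livers. The ratio of *Sesn1* to *Sesn2* had an amplitude of 0.15 ± 0.11 (SE; permutation *P*-value 0.48, adjusted 0.48), and that of *Prkaa1* to *Prkaa2* 0.13 ± 0.063 (SE; permutation *P*-value 0.163, adjusted 0.217). Leaving out 1 liver at a time kept the first and second pair called, at adjusted permutation *P*-values of at most 0.0014 and 0.00352. Without ZT13 replicate 2 the AMPK pair was called as well, at an adjusted permutation *P*-value of 0.0235 and an amplitude of 0.18.

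**Figure D3:**
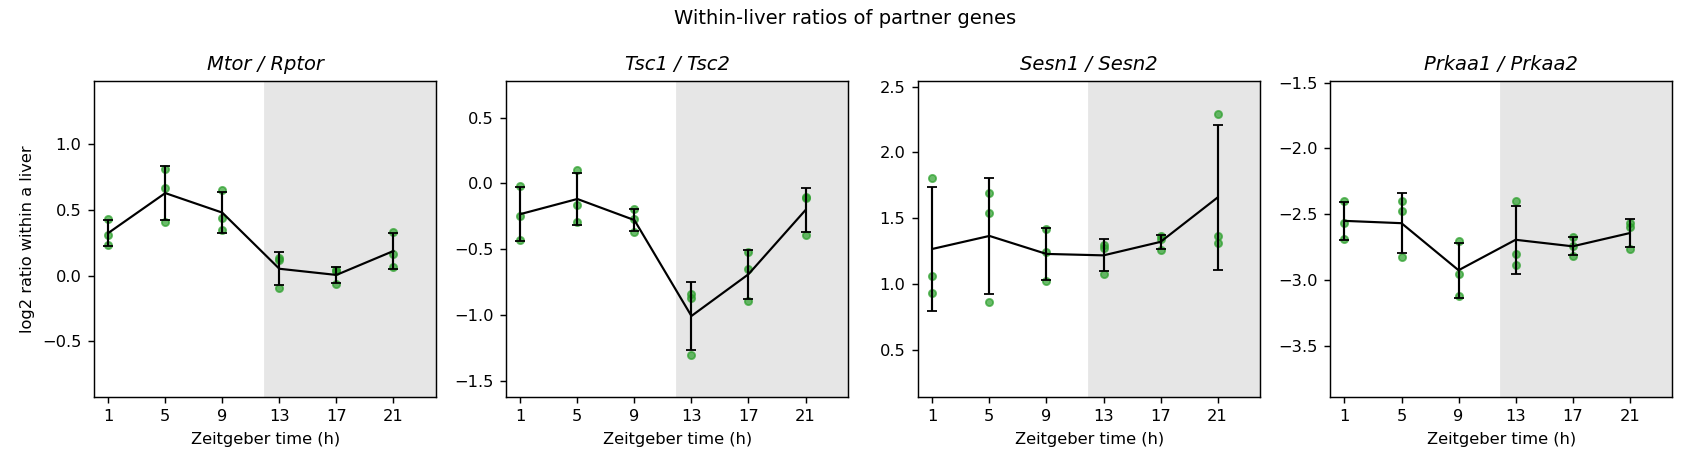
Log2 of the ratio of normalized values within a liver (vertical, each panel spanning the same number of log2 units) by zeitgeber time (hours, horizontal) for 4 pairs of genes. Green points are livers, black lines join means of 3 livers with SD bars, and grey marks the dark. The ratio of *Tsc1* to *Tsc2* is lowest at ZT13 and that of *Mtor* to *Rptor* at ZT17, and the other 2 panels show wider overlap between times.

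Across the 18 livers, *Tsc1* and *Sesn1* were the most alike of the 10 genes (Pearson r of log2(value + 1) 0.917), and *Mtor* and *Ddit4* the most opposed (r -0.824). These points share the time of day and the library, so the values describe likeness only. Among all genes, the 3 most like *Mtor* were *Arhgef12* (r 0.954), *Rcl1* (0.934) and the clock repressor gene *Nr1d1* (0.932). *Ddit4* was most like the clock repressor gene *Cry1* (r 0.940), then *Ankrd46* (0.911) and the linker histone gene *Hist1h1c* (0.908). By Spearman rank correlation the order of these 3 changed, with *Hist1h1c* at 0.917, *Cry1* at 0.903 and *Ankrd46* at 0.752. *Tsc1* was most like *Klhl24* (r 0.944), *Cdc14b* (0.940) and *Rab5b* (0.938). The fitted peak of *Cry1* was at ZT18.8 with an amplitude of 1.44 log2 units, and that of *Nr1d1* at ZT6.20 with 2.79.

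The wider pathway was also rhythmic in part. Of 68 further genes listed for mTOR and AMPK signalling, 66 were tested, and *Rragb* and *Samtor* were not analysed here. A 24 h rhythm was called by limma for 31 of the 66, where 35.3% of all genes were called, with 16 peaks in the light and 15 in the dark. The median amplitude was 0.16 log2 units, as over all genes. The list was chosen with earlier results of these data known, so the share called is not independent of them. By role, 13 of 26 genes of amino acid sensing by Rag GTPases, 10 of 15 effectors, 3 of 9 genes of the mTOR complexes and 3 of 11 genes of AMPK were called. Of the 3 others of the TSC complex and Rheb, limma called 0, with 0 at an unadjusted *P*-value below 0.05, and both other stress-induced inhibitors were called.

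Among the genes of the mTOR complexes, *Rictor*, which defines the other mTOR complex, resembled *Tsc1*, with a mean of 28.4 ± 2.46 at ZT5 and 17.2 ± 2.13 (SD, n = 3) at ZT13 and an amplitude of 0.34 ± 0.059 log2 units (SE; adjusted *P*-value 0.00103, limma). *Mlst8*, a subunit of both complexes, peaked in the dark, with 9.52 ± 0.238 at ZT17 and 6.06 ± 0.293 (SD, n = 3) at ZT1 (adjusted *P*-value 0.011, limma). *Deptor*, an inhibitor bound to the kinase, peaked at ZT6.52 with 251 ± 18.7 at ZT9 and 172 ± 7.97 (SD, n = 3) at ZT17 (adjusted *P*-value 0.00219, limma). Transcripts of the kinase subunit and its inhibitor were thus higher in the light and that of *Mlst8* in the dark.

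Transcripts of folliculin and its partners, proteins that act on Rag GTPases at the lysosome, had the largest amplitudes of the amino acid sensing group. All had peaks in the light. *Flcn* values were 17.97, 19.5 and 26.4 at ZT1, 37.1, 43.0 and 46.2 at ZT5 and 32.7, 41.7 and 31.6 at ZT9. Dark livers were at 18.3, 13.3 and 12.3 at ZT13, 11.8, 11.9 and 12.7 at ZT17 and 16.6, 20.4 and 16.7 at ZT21, so that 6 livers of ZT5 and ZT9 were above all others. Its amplitude was 0.82 ± 0.094 log2 units (SE; adjusted *P*-value 1.61e-05, limma). *Fnip1* and *Fnip2*, which encode its binding partners, had amplitudes of 0.52 ± 0.078 and 0.57 ± 0.10 (SE; adjusted *P*-values 0.000274 and 0.001, limma). Their fitted peaks were at ZT5.81 and ZT7.98, beside ZT5.57 for *Flcn* and ZT5.65 for *Mtor*.

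The other stress-induced inhibitors peaked on opposite sides of the day, each on the side of its relative among the 10 genes. *Sesn3*, the third sestrin gene, had 42.1 ± 2.26 at ZT5 and 26.2 ± 1.34 (SD, n = 3) at ZT13, an amplitude of 0.33 ± 0.056 log2 units (SE) and a peak at ZT2.13 (adjusted *P*-value 0.000849, limma), near that of *Sesn1*. *Ddit4l*, the relative of *Ddit4*, was low, with 2.07 ± 0.0842 at ZT17 and 0.910 ± 0.367 (SD, n = 3) at ZT9, and peaked at ZT18.8 (adjusted *P*-value 0.0166, limma).

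Of the AMPK genes, *Camkk2*, which encodes a kinase that activates AMPK, was highest at ZT21, at 17.1 ± 1.92, and lowest at ZT9, at 10.1 ± 0.795 (SD, n = 3; adjusted *P*-value 0.0043, limma). *Prkag2*, a regulatory subunit, had 34.8 ± 3.58 at ZT13 and 24.4 ± 1.54 (SD, n = 3) at ZT1 (adjusted *P*-value 0.0267, limma). Its call was lost without ZT1 replicate 1 or 2, ZT5 replicate 2, ZT13 replicate 1 or ZT17 replicate 1, and at 0.0954 after rescaling to 1000000. *Stradb*, a partner of the upstream kinase LKB1, peaked at ZT5.54 with an amplitude of 0.16 ± 0.043 log2 units (SE; adjusted *P*-value 0.0182, limma).

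Effectors held the 2 largest amplitudes of the 66 genes. *Eif4ebp3*, a relative of *Eif4ebp1*, had normalized values of 8.70, 12.1 and 8.79 at ZT5, 139, 39.2 and 40.9 at ZT13 and 83.2, 50.4 and 58.5 at ZT17. Of its 9 dark livers, 8 were above all its light livers, and replicate 1 of ZT13 stood far above the rest. The amplitude was 1.32 ± 0.16 log2 units (SE) with the peak at ZT16.0 (adjusted *P*-value 2.57e-05, limma), while that of *Eif4ebp1* was 0.14 and not called. *Lpin1*, which encodes a phosphatidate phosphatase that mTOR keeps out of the nucleus, had 224, 109 and 162 at ZT9, 271, 64.8 and 253 at ZT13 and 23.5, 75.1 and 32.7 at ZT17, with a peak at ZT10.4 (adjusted *P*-value 0.00757, limma) and replicate 2 of ZT13 far below its group. *Ulk1*, the autophagy kinase that mTOR inhibits and AMPK activates, had 102 ± 10.5 at ZT5 and 35.4 ± 6.59 (SD, n = 3) at ZT17, with a peak at ZT6.90 and an amplitude of 0.74 ± 0.069 log2 units (SE; adjusted *P*-value 1.79e-06, limma).

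**Figure D4:**
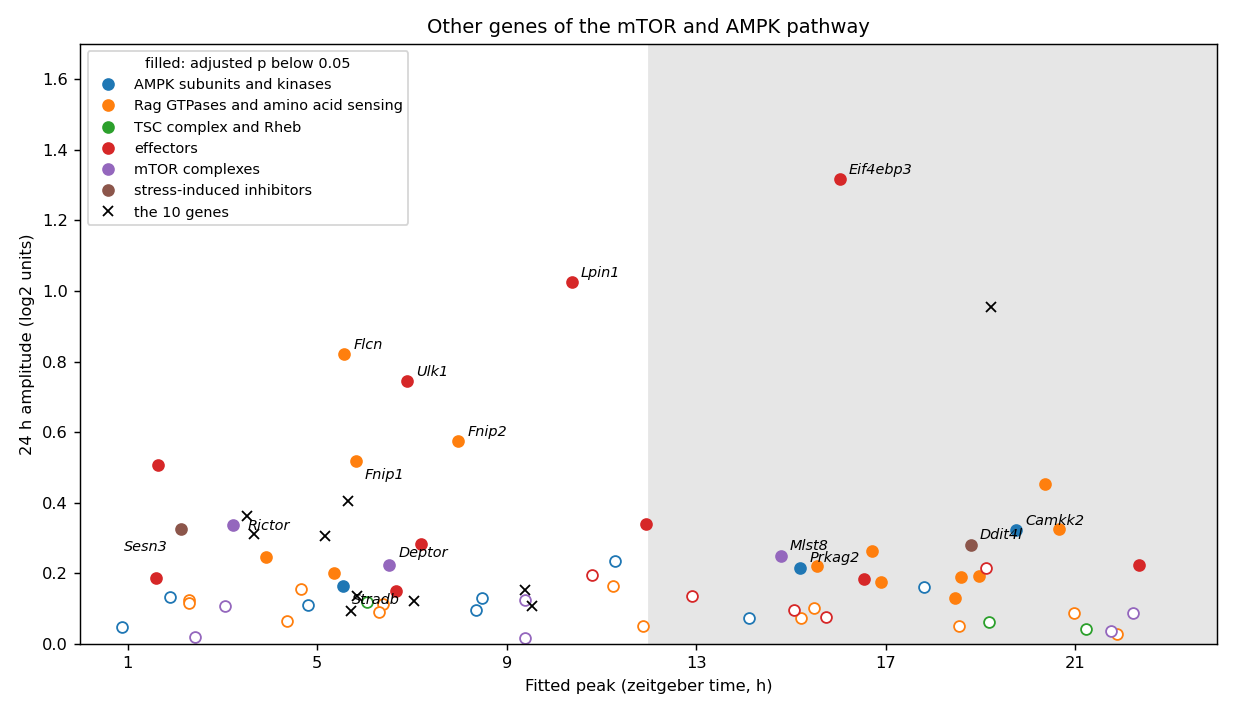
Amplitude of the fitted 24 h cosine (log2 units, vertical) against its peak (zeitgeber time in hours, horizontal) for the 66 further pathway genes, colored by role and filled where the adjusted *P*-value was below 0.05, with the 10 genes as crosses and dark hours in grey. *Eif4ebp3* is the highest point at 1.32, in the dark, and *Lpin1*, *Flcn* and *Ulk1* lead the light side.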

How the data were processed

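RNA of 18 mouse livers was sequenced from polyA RNA, 3 livers at each of 6 zeitgeber times. The authors removed adapters with cutadapt, mapped reads to the GRCm38 transcriptome and estimated counts per gene with RSEM 1.2.20 after base calling with CASAVA 1.8.2 (submitters' processing notes), and normalized them with limma. What the authors deposited is a linear signal, the estimated count plus 0.5 per 1000000 reads of an effective library size, so columns add up to between 941088 and 1077230. The lowest value of a column is that of 0 reads and gave the depth. Between 39.1% and 48.0% of values were whole reads (within 0.001), so count tests were not used.

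log2(value + 1) was fitted with limma 3.58.1 in R 4.3.3 over the 14449 genes that were above the lowest value in at least 1 liver, with the Benjamini–Hochberg adjustment. Folds on this scale understate changes of low genes. JTK, MC and the cosine curve of CircaN (periods of 20 to 28 h, R-squared of at least 0.7) were written again in Python 3.11.15 with numpy 2.4.6 and scipy 1.17.1, and ratios were tested with 100000 permutations of the time labels, two-sided. Scripts were tested on simulated data. The 10 genes and the pathway lists were chosen with earlier results of these data known. Besides the 10 genes, those named were the 3 called genes of largest amplitude per role of the pathway list, the 4 of the ATF4 list, and the 3 genes most correlated with each of the 3 most rhythmic of the 10. The promoter motifs were revised after a first scan. Coordinates are from GENCODE M21, and windows from RefSeq.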

Additional observations from a re-analysis of the deposited data

How the results depend on the processing

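Alternatives covered the pseudocount, a filter on low values, library scaling, a variance trend, depth as a covariate, a stricter threshold and leaving out each liver. *Mtor*, *Tsc1*, *Ddit4* and *Sesn1* stayed called for a 24 h rhythm by limma in all 26, and no alternative moved a fitted peak of the 10 genes to the other side of the day. With each liver rescaled to 1000000, 9 genes were called, and *Sesn2*, *Eif4ebp1*, *Prkaa1* and *Prkaa2* joined with adjusted *P*-values of 0.0396, 0.0157, 0.0217 and 0.0491 (limma). At an adjusted *P*-value below 0.01, 20 pathway genes and 2 of the 60 steps were called, JTK called 1 of the 10 genes, *Mtor*, and all genes with a 24 h rhythm went from 5103 to 2862. Leaving out 1 liver gave 4 to 7 of the 10 genes for the 24 h rhythm, 4 to 4 for the time points, 0 to 0 for the 12 h term, 3 to 6 steps, 28 to 32 pathway genes, 3 to 4 genes by JTK, 4 to 5 by MC, 4 to 4 by CircaN and 2 to 3 ratios. JTK lost *Sesn1* without ZT5 replicate 1 or 2 or any 1 liver of ZT13 or ZT17, and called *Prkaa1* without ZT5 replicate 1 or ZT13 replicate 2. MC lost *Sesn1* at a q-value below 0.01 and with the smaller *P*-value adjusted by Bonferroni, which left 3 genes each, and gained *Rptor* without ZT5 replicate 3 and after the rescaling. The step of *Ddit4* from ZT13 to ZT17 was called without ZT17 replicate 2, and that of *Tsc1* from ZT17 to ZT21 without ZT17 replicate 3 and with the variance trend. No paired analysis was possible because the labels give no replicate numbers and each liver is from another mouse.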

Other observations

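Genes of the ATF4 response, which is switched on by amino acid shortage and stress and to which *Ddit4* and *Sesn2* are known to respond, were read from a list of their own. Of 16 tested, 8 had a 24 h rhythm (limma), with 5 peaks in the light and 3 in the dark, where 35.3% of all genes were called, and *Phgdh* was not analysed here. The median amplitude was 0.23 log2 units, against 0.16 over all genes. *Trib3*, a pseudokinase gene, had normalized values of 9.36, 13.2 and 8.89 at ZT5 and 1.17, 3.27 and 1.32 at ZT21, with a peak at ZT6.47 and an amplitude of 1.00 ± 0.16 (SE; adjusted *P*-value 0.000397). *Atf5*, a transcription factor gene, peaked near lights on, with 208 ± 19.9 (SD, n = 3) at ZT1 and 90.7 ± 37.5 at ZT13 (adjusted *P*-value 0.000122, limma). *Ddit3*, which encodes the stress factor CHOP, was highest at ZT13, with 12.8, 13.6 and 11.6 against 4.78, 3.85 and 4.77 at ZT5 (adjusted *P*-value 0.00754, limma). *Chac1*, a glutathione-degrading enzyme gene, had 5.16, 5.14 and 2.34 at ZT1 and 0.652, 1.17 and 0.441 at ZT17 (adjusted *P*-value 0.0401, limma), and its call was lost without ZT1 replicate 1 or 2, ZT9 replicate 3 or any 1 liver of ZT13 or ZT17, at up to 0.0849.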
